A study of Gossypium barbadense with 48 samples.

Results

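The 4 cotton genes described here are SMD1B (Gbar_D08G020910), At2g45070 (Gbar_D08G015900), F6'H1 (Gbar_D08G024860) and GRDP2 (Gbar_D03G003400), out of 69337 genes in the count table. They were chosen by their measured level in PimaS-7 against 5917 at each stage. The size and direction of that difference are therefore given as a description, without a test. Tests were kept for changes between stages within a material and for other genes.

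PimaS-7 is an American and 5917 a Chinese cultivar of Gossypium barbadense, and they are the parents of a recombinant inbred population used to map fiber strength. Libraries were made every 5 days from 0 to 35 days post anthesis (DPA), giving 48 libraries with 3 per material and stage. The labels name no treatment and no transgene. The labels call every sample cotton fiber, whereas the methods of the study state that ovules were taken at 0 DPA and fibers later, so the step from 0 to 5 DPA changes tissue as well as age. The methods call the replicates biological but do not say whether the 3 of a group came from separate plants, and they can be read as naming 1 plant per parent. The p-values measure the spread between these libraries.

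SmD1 is a core protein of the ring that assembles on spliceosomal small nuclear RNAs, the particles that remove introns from pre-mRNA. At2g45070 is the annotation's name for the beta subunit of Sec61, the channel through which new secretory and membrane proteins enter the endoplasmic reticulum. F6'H1 is a feruloyl-CoA hydroxylase of the 2-oxoglutarate-dependent dioxygenase family. In Arabidopsis it makes the precursor of scopoletin, a coumarin. GRDP2 is a protein with a glycine-rich domain that has been linked to growth and auxin responses in Arabidopsis. Cotton fibers are single cells of the seed coat, which elongate first and then fill their wall with cellulose.

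In the HAU v2.0 annotation of G. barbadense, SMD1B lies on chromosome D08 from 58146627 to 58148739 on the plus strand. A second gene of the same name, Gbar_D08G020920, follows at 58159616 to 58161253 on the same strand, 10876 bases further on. At2g45070 lies on D08 from 48796590 to 48798362 on the plus strand. F6'H1 lies on D08 from 63037024 to 63038663 on the minus strand. GRDP2 lies on D03 from 3671342 to 3675030 on the minus strand. All values are for whole gene models, with exons and untranslated regions not told apart.

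Total counts ranged from 28222056 to 43390702 per library. The 0 DPA libraries carried the dividing-cell marker list at a summed level of 79.04 to 115 CPM (read counts scaled to a common library size), against 13.7 to 44.8 CPM from 25 DPA on. The fiber-elongation list was highest at 15 DPA, at 1580 to 4007 CPM over both materials, nearly all of it from the aquaporin gene PIP1-2 (1286375 counts over all libraries, against 18510 for EXLB1). EXLB1, an expansin-like gene of the same list, was called lower in PimaS-7 at 5 of 7 stages tested. The secondary-wall list was at 94.7 to 119 CPM in 5917 at 15 DPA, against 26.9 to 33.2 CPM in PimaS-7. At 20 DPA the materials overlapped, at 53.3 to 79.4 CPM in 5917 and 58.9 to 106 CPM in PimaS-7. The list was highest at 25 DPA in PimaS-7 (752 to 910 CPM, against 308 to 500 CPM in 5917). In 5917 it was highest from 30 DPA on (447 to 614 CPM), so the same DPA did not stand for the same marker level in both materials. Of its 3 genes, KNAT7 was called between the materials at no stage, and MYB86 and TBL43 were called in both directions. Photosynthesis markers summed to 18.6 to 62.7 CPM in 5917 from 25 DPA on, against 1.19 to 19.2 CPM in PimaS-7. Of these 4 genes, PSBW (Gbar_D08G021220) had 9651 counts over all libraries, against 1690 for PSBT, the next. Only PSBW was called, lower in PimaS-7 at 3 of 8 stages tested, with log2 ratios from -2.95 to 2.95. Seed and embryo markers summed to at most 13.1 CPM anywhere. No marker list had more than 2 genes without a count in a group. The part of these differences in the levels below was not tested. By correlation of log2(FPKM + 1), 4 of the 48 libraries were closest to a library of another stage. These were replicates 1 and 2 of 5917 at 25 DPA and replicates 2 and 3 of 5917 at 30 DPA. Correlations between replicates were 0.945 to 0.954 for 5917 at 25 DPA and 0.952 to 0.971 at 30 DPA. PimaS-7 had lower minima, 0.926 in its 30 DPA group and 0.933 in its 35 DPA group. Each library of these groups was still closest to one of its own replicates. Late changes and ratios that use these PimaS-7 groups carry that spread.

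The deposited level is FPKM, which scales fragments to gene length and library size. SMD1B was higher in 5917 than in PimaS-7 at all 8 stages, and GRDP2 and At2g45070 were higher in PimaS-7 at all 8, with no overlap between the 3 libraries of each material. F6'H1 was read only in 5917, and its libraries did not overlap at 0, 5 and 10 DPA. Together this gave 27 of 32 combinations of gene and stage without overlap. Over all genes with a count, the share without overlap for the stages in order of age was 23.8%, 28.7%, 32.1%, 39%, 33.1%, 26.5%, 31.5% and 37.7%. No overlap in 1 direction at all 8 stages was found for 469 of 69337 genes (0.676%), of which 221 were higher in PimaS-7 and 248 in 5917. At 0, 5 and 10 DPA alone it was found for 3.99% of 66470 genes. Because the 4 genes were picked for this pattern, these shares describe how common it is and nothing more.

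**Figure D1:**
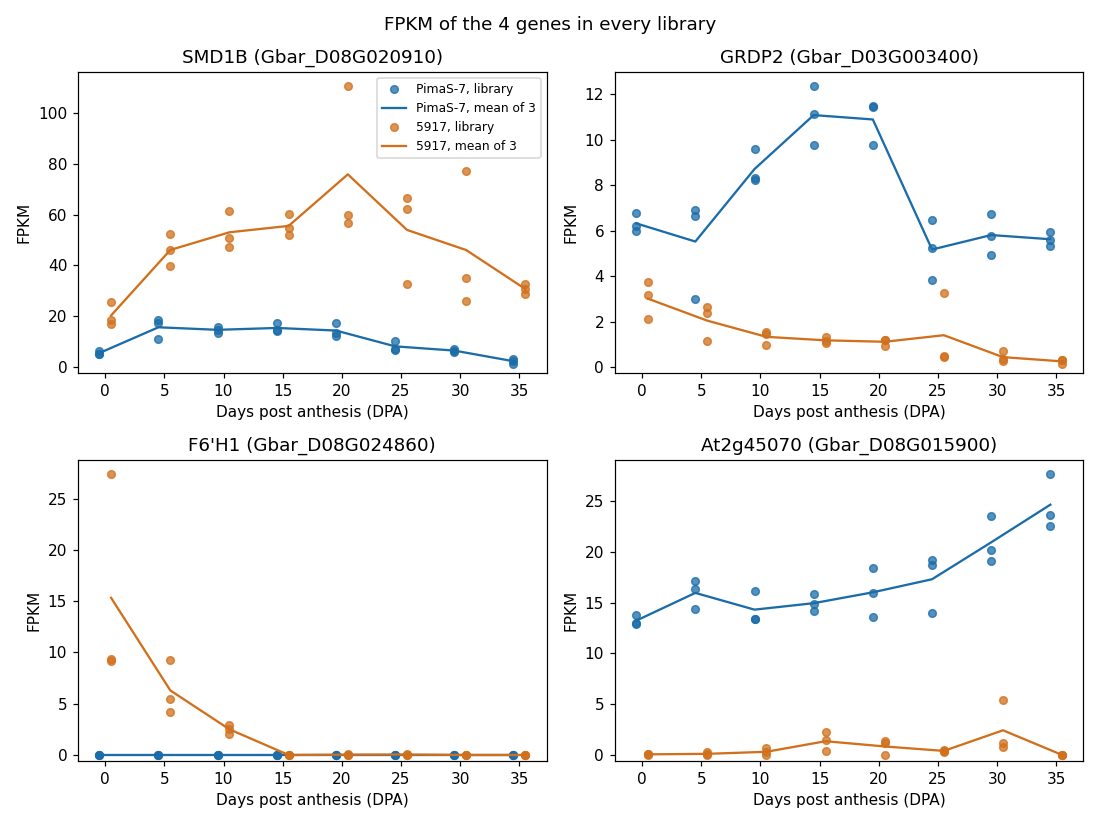
FPKM (vertical axis, a separate linear scale for each gene) against days post anthesis for the 4 genes. Points are single libraries and lines join the means of 3 libraries, in blue for PimaS-7 and orange for 5917. SMD1B sits higher in 5917, GRDP2 and At2g45070 sit higher in PimaS-7, and F6'H1 is above 0.2 FPKM in 5917 at 0 to 10 DPA and nowhere else.

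By mean FPKM, SMD1B was the highest of the 4 genes in 5917 at every stage. In 5917 its FPKM was 18.5, 25.5 and 17.1 at 0 DPA and 39.97, 45.9 and 52.4 at 5 DPA. At 10 DPA it was 61.3, 47.2 and 50.6, and at 15 DPA 54.7, 60.1 and 51.9. The groups of 5, 10 and 15 DPA were even, with each of their libraries above every 0 DPA library. At 0 DPA replicate 2 stood above the others, and the coefficient of variation in CPM was 21.3%, against 11.5% at 5 DPA.

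At 20 DPA the 5917 libraries read 56.8, 110.6 and 60.0 FPKM for SMD1B, with replicate 2 well above the other two. At 25 DPA they read 62.3, 66.7 and 32.9 FPKM, and at 30 DPA 77.1, 25.8 and 35.2 FPKM. Replicate 3 of 25 DPA was the low one and replicate 1 of 30 DPA the high one. At 35 DPA the values closed up again to 32.5, 28.9 and 30.8 FPKM.

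In PimaS-7 SMD1B stayed lower throughout. Its FPKM was 5.20, 5.28 and 6.22 at 0 DPA and 10.9, 18.7 and 17.4 at 5 DPA. At 10 DPA it was 15.95, 14.5 and 13.6, then 17.2, 14.7 and 14.4 by 15 DPA and 17.3, 13.6 and 12.4 by 20 DPA. In FPKM this was a plateau in which these groups overlapped. In normalized CPM the 10 DPA libraries, at most 13.2, lay below those of 15 DPA, at least 14.8. At 25 DPA the FPKM was 6.94, 7.32 and 10.3, then 6.24, 7.35 and 6.05 by 30 DPA and 1.44, 2.51 and 3.13 by 35 DPA. The highest PimaS-7 library of any stage, 18.7 FPKM, lay within the range of the 5917 libraries at 0 DPA and below all 5917 libraries of later stages.

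Ordered by mean FPKM, the 6 stages of 5917 from 5 to 30 DPA filled the first 6 of 16 places for SMD1B, followed by 35 DPA and 0 DPA of 5917 and then by PimaS-7 at 5 DPA. The range of libraries was apart from that of the next group in the order only after 5917 at 35 DPA, after PimaS-7 at 20 DPA and after PimaS-7 at 0 DPA. All other neighbours in the order overlapped.

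The ratio of 5917 to PimaS-7 in mean normalized CPM grew over the stages for SMD1B. For 0, 5, 10 and 15 DPA it was 3.74, 3.29, 4.22 and 4.35. For 20, 25, 30 and 35 DPA it was 5.74, 6.43, 10.6 and 19.4. With replicate 1 of 5917 left out, the ratio at 30 DPA was 5.99, and leaving out any 1 library at 35 DPA gave 15.9 to 21.9. In FPKM the ratio was 7.04 at 30 DPA and 13.03 at 35 DPA, and the 2 scales divide by different library totals.

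Between neighbouring stages, a change was called where the adjusted p of edgeR's quasi-likelihood test was at most 0.05 and the change at least 2-fold. SMD1B rose from 0 to 5 DPA in both materials, by 3.25-fold in PimaS-7 (log2 1.70 ± 0.24 SE, adjusted p = 0.00199) and by 2.98-fold in 5917 (log2 1.58 ± 0.17 SE, adjusted p = 0.000322). That step was called for 16.1% of all genes in PimaS-7 and for 25.1% in 5917. The last step in PimaS-7, from 30 to 35 DPA, had a log2 fold change of -1.61 ± 0.35 SE with an adjusted p of 0.0515. It passed with library totals in place of TMM factors (log2 -1.51) and in DESeq2 (log2 -1.67). Both fits on log2 FPKM (log2 -1.20 and -1.495) and 1 fit of all 48 libraries (log2 -1.66) called it too. Against these 5 settings, 10 others left the step uncalled. Among the latter was edgeR on the added reads of both SMD1B genes (log2 -1.41, adjusted p = 0.0504). In 5917 the same step had a log2 fold change of -0.76 ± 0.46 SE and was not called.

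The spread of SMD1B between replicates went along with the reads on the second SMD1B gene. The share of the reads of both genes that was counted on the second one ranged from 0% to 45.4% over the libraries. It was 40% or more in 25 libraries, 16 of PimaS-7 and 9 of 5917, and under 10% in 8 libraries, 7 of 5917 and 1 of PimaS-7. In 5917 at 20 DPA the first gene had 1541, 3714 and 1929 counts and the second 1143, 21 and 1176 counts. Where the first was high, the second was nearly empty.

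Added together, the reads of both SMD1B genes were steadier in most groups. In 5917 at 20 DPA the sums were 122, 127 and 118 CPM, and the coefficient of variation over the replicates was 34.9% for the first gene and 3.54% for the sum. In PimaS-7 at 25 DPA it was 22.5% for the first gene and 3.83% for the sum. Over the 16 groups the median was 13.97% for the first gene, 61.3% for the second and 10.9% for the sum, and the sum was the steadier in 11 groups against the first gene and in 15 against the second. The reverse was seen in 5917 at 35 DPA, with 5.77% for the first gene and 31.3% for the sum, and in PimaS-7 at 5 DPA, with 29.3% and 41.2%. At 30 DPA in 5917 the sums were still apart, at 134, 50.0 and 81.4 CPM. How reads were divided between the neighbouring genes is not given in the sources used here, so the levels of the single SMD1B genes are uncertain, and values of the sum are given as well.

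For the sum of both genes, 5917 exceeded PimaS-7 by a ratio of 2.98, 3.38, 3.78 and 4.25 for 0, 5, 10 and 15 DPA. The ratio was 4.75, 4.73, 9.89 and 15.6 for 20, 25, 30 and 35 DPA, so it widened with age as that of the first gene did. With the sum as 1 gene, the rise from 0 to 5 DPA was again called in both materials (log2 1.44 ± 0.27 SE in PimaS-7 and 1.69 ± 0.17 SE in 5917).

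**Figure D2:**
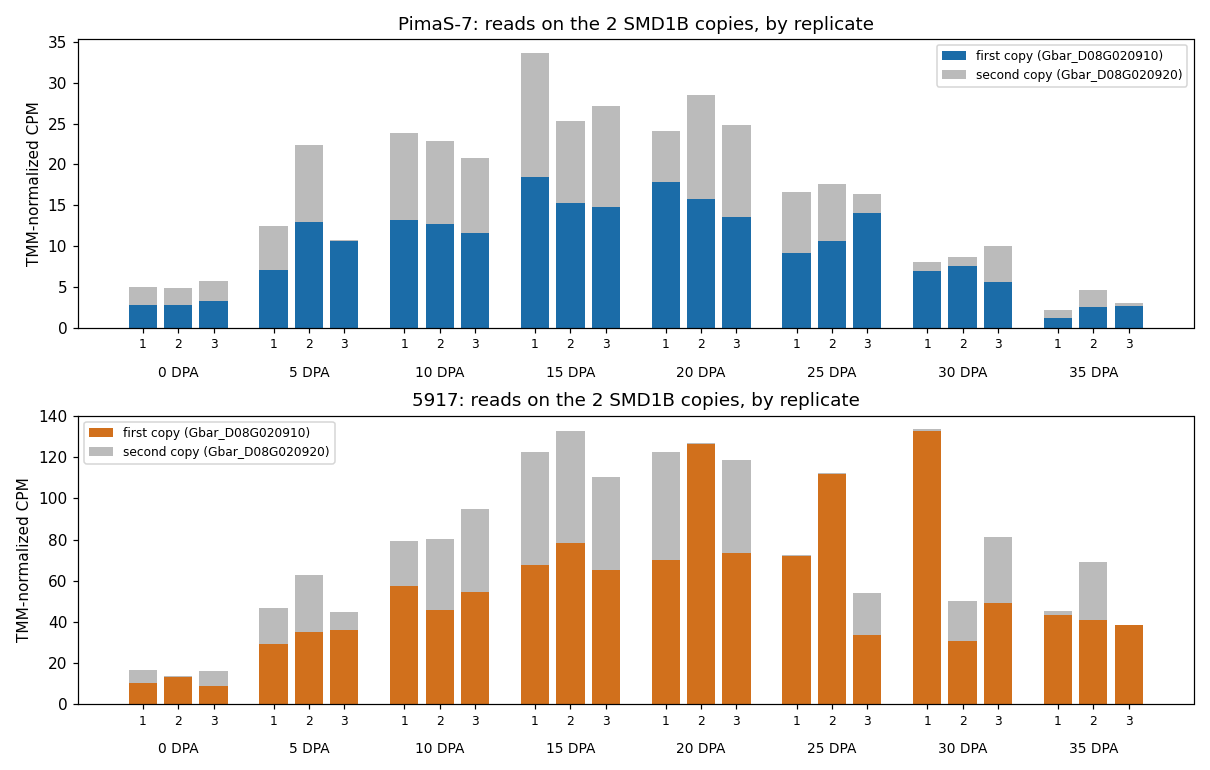
Normalized CPM on the 2 neighbouring SMD1B genes in every library, stacked, with replicate numbers and DPA on the horizontal axis and 1 panel per material (the vertical scales differ). The grey part, the second gene, is missing or nearly so in 8 libraries, and at 20 DPA in 5917 the full bars reach 118 to 127 CPM although the coloured parts differ.

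Taken alone, the second SMD1B gene was called between the materials at 10 DPA (log2 PimaS-7 over 5917 of -1.67 ± 0.21 SE, adjusted p = 0.00408) and at 15 DPA (log2 -2.02 ± 0.16 SE, adjusted p = 0.000207), by edgeR's quasi-likelihood test. At the other 6 stages its fitted log2 values, from -0.41 to -3.07, did not pass. At 0 DPA the value turned to 0.35 in limma on log2(FPKM + 0.1). At 25 DPA it rested on replicate 3 of 5917, at 20.2 CPM, while replicates 1 and 2 of 5917, at 0.422 and 0.754 CPM, lay below all 3 PimaS-7 libraries. At 0 and at 20 DPA it passed once replicate 2 of 5917 was left out (log2 -1.55 and -2.25). Whether both genes share reads was not tested, so it may not be an independent measurement. No stage was called for it in 1 fit of all 48 libraries. The pathway and neighbour lists were drawn from genes of the mapped intervals on D03, D08 and D11 alone, not from the whole genome. Of the other genes annotated there to splicing or the spliceosome, 11 of 12 were in the count table with this gene included, and 3 of their 80 gene and stage combinations were called (3.75%). The third was SNRNP25, a protein of the minor spliceosome, which was higher in PimaS-7 at 15 DPA (log2 1.60 ± 0.30 SE, adjusted p = 0.00711 in edgeR). Over all genes tested, 8.24% of combinations were called between the materials. For the stages in order of age the share was 2.51%, 4.89%, 5.08%, 12.6%, 8.91%, 6.91%, 7.83% and 18.2%. The median log2 ratio of the splicing list was 0.02, and that of all genes lay between -0.06 and 0.15 at the 8 stages.

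At2g45070, the Sec61 beta gene, was read well in PimaS-7 and hardly at all in 5917. In PimaS-7 its FPKM was 12.98, 12.9 and 13.8 at 0 DPA, then 17.1, 16.4 and 14.4 by 5 DPA and 13.4, 16.2 and 13.4 by 10 DPA. At 15 DPA it was 15.8, 14.8 and 14.2, then 18.5, 15.97 and 13.6 by 20 DPA and 19.2, 13.95 and 18.8 by 25 DPA. By mean FPKM the last 2 stages were the highest. They read 20.2, 23.5 and 19.1 FPKM at 30 DPA and 22.6, 27.7 and 23.7 FPKM at 35 DPA. Normalized CPM gave another course, with a mean of 5.72 at 0 DPA and the highest mean, 18.48, at 25 DPA. The means at 30 and 35 DPA were 16.96 and 17.73 CPM, and the libraries of 25, 30 and 35 DPA overlapped in CPM.

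In 5917 the counts of At2g45070 were 0, 4 and 5 at 0 DPA, 8, 4 and 0 at 5 DPA, and 15, 0 and 6 at 10 DPA. At 15 DPA they were 8, 34 and 52, then 0, 32 and 28 by 20 DPA and 8, 10 and 12 by 25 DPA. At 30 DPA they were 143, 19 and 26, and at 35 DPA all 3 were 0. The highest 5917 library, replicate 1 of 30 DPA, reached 5.38 FPKM, and the lowest PimaS-7 library of any stage was at 12.9 FPKM.

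The ratio of PimaS-7 to 5917 in mean CPM for At2g45070 was 117, 87.7, 46.2 and 10.6 for 0, 5, 10 and 15 DPA. For 20, 25 and 30 DPA it was 20.2, 48.5 and 5.23. Without replicate 1 of 5917 the ratio at 30 DPA was 17.5. At 35 DPA PimaS-7 was at least 414-fold higher, taking a floor of 3 counts over the 5917 libraries. In the order of mean FPKM the 8 PimaS-7 groups came first, from 24.7 at 35 DPA to 13.2 at 0 DPA, each overlapping the next, and then, with a gap, the 8 groups of 5917, which all overlapped their neighbours. The low counts in 5917 make these ratios imprecise. Leaving out 1 library gave 78.3 to 189 for 0 DPA, 58.4 to 170 for 5 DPA and 30.8 to 105 for 10 DPA. In FPKM the ratio was 212 for 0 DPA, 139.8 for 5 DPA and 8.61 for 30 DPA.

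In PimaS-7 no step of At2g45070 was called in edgeR or DESeq2, with log2 changes between -0.04 and 0.47 and 2 of 7 steps at an unadjusted p under 0.05, although the edgeR F test over the 8 stages gave an adjusted p of 1.63e-07. That F test was passed by 86.7% of all genes in PimaS-7 and by 84.2% in 5917, so passing it does not set a gene apart. In 5917, 5 steps had enough counts for a test and none was called in edgeR, with 2 at an unadjusted p under 0.05. The largest rise, from 25 to 30 DPA (log2 3.05 ± 0.94 SE, adjusted p = 0.322), rested on replicate 1 of 30 DPA. From 30 to 35 DPA the mean level became at least 75.7-fold lower against the same floor, with an adjusted p of 0.204, and that group mean also rested on the same library. DESeq2 called both of these steps, and the fit of all 48 libraries called both and the step from 10 to 15 DPA (log2 2.48).

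Beyond At2g45070, the list for protein entry and folding in the endoplasmic reticulum had 2 of 64 combinations called (3.12%), over 8 genes with enough counts for a test. These were SRP9, a subunit of the signal recognition particle, at 35 DPA (log2 -1.52 ± 0.37 SE) and BIP5, a luminal-binding chaperone, at 20 DPA (log2 -1.11 ± 0.17 SE), both lower in PimaS-7 and so opposite to At2g45070. Of the 5 vesicle coat genes, COPZ2, a coatomer subunit, was called at 35 DPA (log2 -1.42 ± 0.33 SE) and no other combination of 40 was. The median log2 ratio was -0.16 for the first list and -0.03 for the second.

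The genes around At2g45070 on D08 differed between the materials in both directions. Of the 5 gene models on each side, 9 were in the table, and 15 of 47 tested combinations were called (31.9%), 6 higher in PimaS-7 and 9 higher in 5917. CYCU2-2, a U-type cyclin at 48780069 to 48781257, was lower in PimaS-7 at 5 stages, with log2 values from -1.30 at 20 DPA to -3.62 at 35 DPA. B0495.7, annotated as a putative endoplasmic reticulum metallopeptidase at 49047067 to 49055176, was higher in PimaS-7 at 0, 5 and 10 DPA (log2 1.19, 1.82 and 2.88). Around SMD1B 7 of 61 combinations were called (11.5%), 2 of them in the second SMD1B gene. Also among these was PLP9, a probable inactive patatin-like protein, higher in PimaS-7 at 20 DPA (log2 2.996) and lower at 25 DPA (log2 -2.79). Around GRDP2 0 of 31 and around F6'H1 0 of 53 combinations were called in edgeR, with 9 and 8 at an unadjusted p under 0.05. DESeq2 called 4 of 52 around GRDP2 and 0 of 60 around F6'H1. In edgeR the smallest adjusted p was 0.0514 around GRDP2, for At3g57160, and 0.0118 around F6'H1, for an XPO1 gene (Gbar_D08G024890), both picked after their values were seen. XPO1, a nuclear export receptor, was not called because its log2 ratios, from -0.50 to 0.84, stayed under a 2-fold difference.

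F6'H1 was read only in 5917 and mainly at the early stages. In 5917 its FPKM was 27.4, 9.13 and 9.41 at 0 DPA, then 5.48, 9.25 and 4.17 by 5 DPA and 2.50, 2.96 and 2.05 by 10 DPA. Replicate 1 of 0 DPA was far above the other two, and the ranges of 0 and 5 DPA overlapped while 10 DPA lay below both. From 15 DPA on no library exceeded 0.104 FPKM, with counts of 7 in 1 library at 20 DPA and of 3 and 7 in 2 libraries at 25 DPA, and 0 at 15, 30 and 35 DPA.

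In PimaS-7 F6'H1 had 0 counts in all 24 libraries. With a floor of 3 counts over the 3 PimaS-7 libraries of a stage, 5917 was at least 851-fold higher at 0 DPA, at least 429-fold at 5 DPA and at least 186-fold at 10 DPA. Without replicate 1 of 5917 the bound at 0 DPA was 505-fold. A table with no count in a whole material was not rare: 1674 of 69337 genes had no count in PimaS-7 and 2356 had none in 5917. Most of them were low in the other material as well. Only 65 of the 1674 had a mean above 0.5 FPKM in 5917, F6'H1 among them, and 74 of the 2356 had one in PimaS-7.

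From 10 to 15 DPA F6'H1 fell in 5917 from 410 counts over 3 libraries to 0, at least 109-fold lower, with an adjusted p of 0.000121 in edgeR's quasi-likelihood test. The same step was called for 20.3% of all genes. The 2 earlier steps had log2 changes of -0.87 ± 0.52 SE (adjusted p = 0.203) and -0.91 ± 0.32 SE (adjusted p = 0.0502) and were not called. With library totals in place of TMM factors both were called (log2 -1.34 and -1.33), and so was the step from 5 to 10 DPA in both fits on log2 FPKM and without replicate 3 of 5 DPA. Without replicate 1 of 0 DPA the first of these steps was log2 -0.10, and without replicate 2 of 5 DPA the second was log2 -0.47. The stage F test in 5917 gave an adjusted p of 1.23e-07.

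A second gene named F6'H1, Gbar_D08G024870, lies 9715 bases from the first and has no row in the count table. Whether it had no reads or was left out is not known, nor whether reads were divided within this pair. Of the list of phenylpropanoid and coumarin enzymes 8 of 10 genes, F6'H1 itself not among them, were in the count table, and 9 of 39 combinations were called (23.1%), 6 higher in PimaS-7 and 3 higher in 5917. HHT1, an omega-hydroxypalmitate feruloyl transferase that uses the same feruloyl-CoA, was lower in PimaS-7 at 0 DPA (log2 -2.39 ± 0.42 SE) and 5 DPA (log2 -1.09 ± 0.19 SE). At 15 DPA it was higher there (log2 1.29 ± 0.24 SE, adjusted p = 0.00704 in edgeR). SNL6, a cinnamoyl-CoA reductase-like gene, was higher in PimaS-7 at 15 DPA (log2 1.59 ± 0.32 SE) and 20 DPA (log2 1.80 ± 0.16 SE). The median log2 ratio of the list was 0.22.

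Among the other 2-oxoglutarate-dependent dioxygenases 5 of 34 combinations were called (14.7%), 3 higher in PimaS-7 and 2 higher in 5917. ANT17, a leucoanthocyanidin dioxygenase, was lower in PimaS-7 at 5 DPA (log2 -1.19 ± 0.21 SE) and higher at 15 DPA (log2 1.21 ± 0.36 SE) and 20 DPA (log2 1.35 ± 0.20 SE). AOP1.2 was higher in PimaS-7 at 5 DPA (log2 1.01 ± 0.24 SE). None of these named enzymes was called in 1 direction at more than 2 stages, while the log2 ratio of AOP1.2 was above 0 at all 4 stages tested (0.70 to 2.14).

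GRDP2 was read in every library and was higher in PimaS-7. In PimaS-7 its FPKM was 6.77, 6.01 and 6.21 at 0 DPA and 6.91, 3.02 and 6.66 at 5 DPA, with replicate 2 of 5 DPA low. At 10 DPA it was 9.59, 8.24 and 8.33, then 9.77, 11.1 and 12.4 by 15 DPA and 9.78, 11.5 and 11.4 by 20 DPA. At 25 DPA it was 6.48, 3.82 and 5.24, then 4.93, 5.76 and 6.75 by 30 DPA and 5.59, 5.33 and 5.97 by 35 DPA. The libraries of 15 and 20 DPA lay above those of every other stage.

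In 5917 GRDP2 was highest at 0 DPA, with 3.17, 2.13 and 3.74 FPKM, followed by 2.37, 1.16 and 2.63 FPKM at 5 DPA. At 10 DPA it was 1.48, 1.55 and 0.981, then 1.32, 1.17 and 1.06 by 15 DPA and 1.21, 0.927 and 1.22 by 20 DPA. At 25 DPA the values were 0.446, 0.511 and 3.27 FPKM. The high value was replicate 3, which was also the low one of its stage for SMD1B. At 30 DPA they were 0.261, 0.721 and 0.350, and at 35 DPA 0.322, 0.126 and 0.325. The peak that PimaS-7 showed at 15 and 20 DPA had no counterpart in 5917.

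In the order of mean FPKM the 8 stages of PimaS-7 came first, from 11.1 at 15 DPA to 5.18 at 25 DPA, and then the 8 stages of 5917. Between the last PimaS-7 group and the first 5917 group the libraries did not overlap. They also did not overlap between 20 and 10 DPA and between 10 and 0 DPA of PimaS-7, and between 20 and 30 DPA of 5917. The other neighbours in the order overlapped.

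The ratio of PimaS-7 to 5917 for GRDP2 was 2.48 at 0 DPA and 2.85 at 5 DPA in mean CPM. For 10, 15 and 20 DPA it was 6.70, 10.4 and 11.3, and for 25, 30 and 35 DPA it was 5.58, 9.54 and 13.5. Without replicate 3 of 5917 the ratio at 25 DPA was 12.1. In FPKM the ratio was 3.68 at 25 DPA and 21.9 at 35 DPA, both more than 1.5 times away from the CPM value.

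GRDP2 rose in PimaS-7 from 5 to 10 DPA by 2.09-fold (log2 1.06 ± 0.27 SE, adjusted p = 0.0195 in edgeR's quasi-likelihood test), a step called for 20.9% of all genes. The call was lost without replicate 2 of 5 DPA (log2 0.81), without replicate 1 or 2 of 10 DPA (log2 1.02 and 1.07), with library totals (log2 0.64) and in both fits on log2 FPKM (log2 0.64 and 0.73). From 20 to 25 DPA GRDP2 had a log2 change of -0.78 ± 0.19 SE in PimaS-7, with an adjusted p of 0.0236 but less than a 2-fold change. With library totals that step was log2 -1.02 and was called, and limma on log2(FPKM + 0.1) called it too. In 5917 none of the 7 steps was called in edgeR or DESeq2 and none had an unadjusted p under 0.05 in either, with log2 changes from -1.12 to 0.29. The edgeR F test over all stages of 5917 nevertheless gave GRDP2 an adjusted p of 0.0093, a test passed by 84.2% of all genes. Its mean CPM in 5917 was 5.16 at 0 DPA and 1.37 at 35 DPA.

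The remaining steps gave no call for any of the 4 genes. The share of all genes called was 12.1% from 10 to 15 DPA, 5.65% from 15 to 20 DPA, 14.1% from 20 to 25 DPA, 18.2% from 25 to 30 DPA and 3.95% from 30 to 35 DPA in PimaS-7. In 5917 it was 23.4% from 5 to 10 DPA, 0.374% from 15 to 20 DPA, 25.7% from 20 to 25 DPA, 0.0395% from 25 to 30 DPA and 0.0182% from 30 to 35 DPA. In all, 2 of 21 tested steps were called in PimaS-7 and 2 of 22 in 5917. The scaling matters for such steps, since library totals in place of TMM factors moved the median log2 change of all genes by over 0.1 in 10 of the 14 steps and by up to 0.48. Between the materials it moved that median by over 0.1 at 7 of the 8 stages and by up to 0.49, at 35 DPA.

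**Figure D3:**
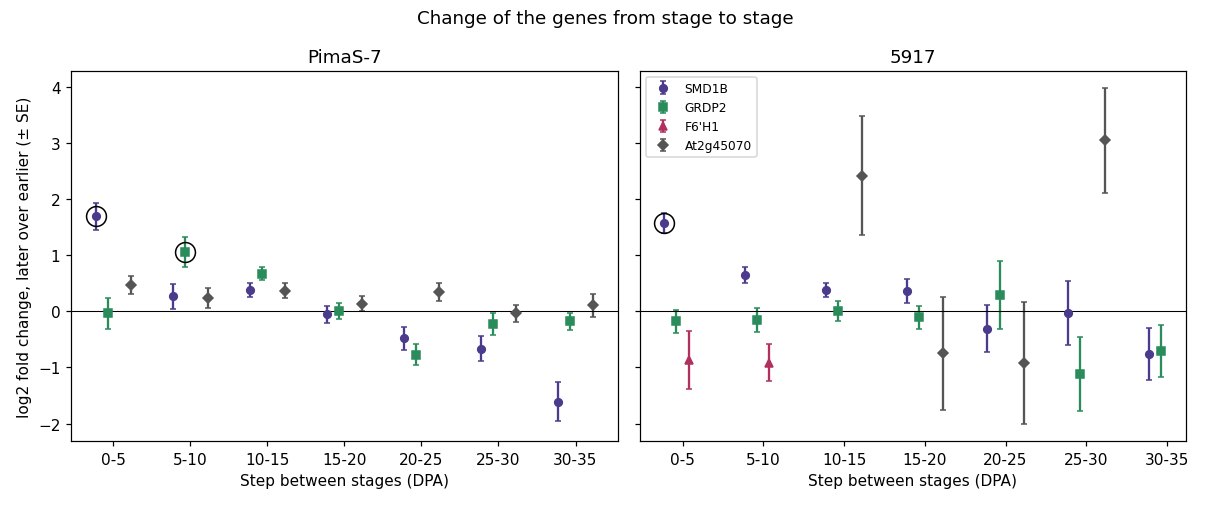
Log2 fold change from each stage to the next (± SE from edgeR) for the 4 genes in PimaS-7 and 5917, with called changes circled. The 2 tested steps that end at 0 counts in 5917 (F6'H1 from 10 to 15 DPA, called, and At2g45070 from 30 to 35 DPA, not called) are left out because a fitted value has no meaning there. Steps with too few counts for a test have no point. SMD1B is circled at the first step in both panels and GRDP2 at 5 to 10 DPA in PimaS-7.

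**Figure D4:**
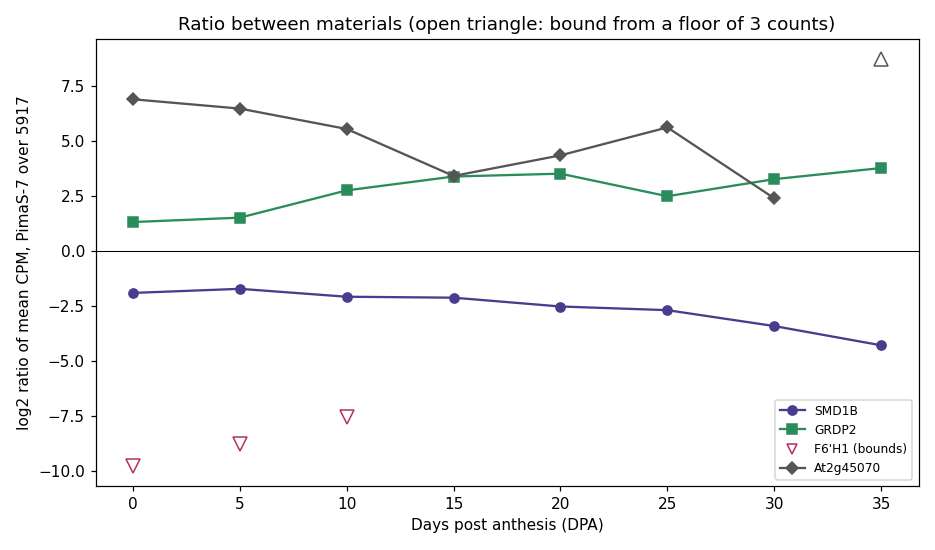
Log2 ratio of mean normalized CPM of PimaS-7 over 5917 against days post anthesis. Filled points are ratios of means of 3 libraries, and open triangles are bounds from a floor of 3 counts where the lower material had no reads. SMD1B and F6'H1 lie below 0 and GRDP2 and At2g45070 above 0 at each stage shown, and the SMD1B ratio widens from 3.29 at 5 DPA to 19.4 at 35 DPA.

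The deposited FPKM of GRDP2 related to its counts differently in PimaS-7 and 5917. FPKM recomputed from counts, library total and gene length was divided into the deposited FPKM in every library with at least 30 counts. In PimaS-7 this quotient was between 0.906 and 0.985 in all 24 libraries. In 5917 it fell on both sides of 1.1, between 1.17 and 1.27 in 14 libraries and between 0.816 and 0.990 in 9. The higher values were found in all 6 libraries of 15 and 20 DPA and in none of 30 or 35 DPA. The medians were 0.937 in PimaS-7 and 1.20 in 5917, and 0.516% of 45134 genes differed as much between the materials by this measure. For SMD1B the medians were alike, at 1.59 in both. For At2g45070 the median was 1.20 in PimaS-7 (1.15 to 1.25) and 1.36 over the 4 libraries of 5917 with enough counts (1.11 to 1.41). For the second SMD1B gene the quotient ran from 0.863 to 1.84 over both materials. Why deposited FPKM and counts diverge was not tested, and it bears on the size of the FPKM ratios of GRDP2, not on their direction.

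**Figure D5:**
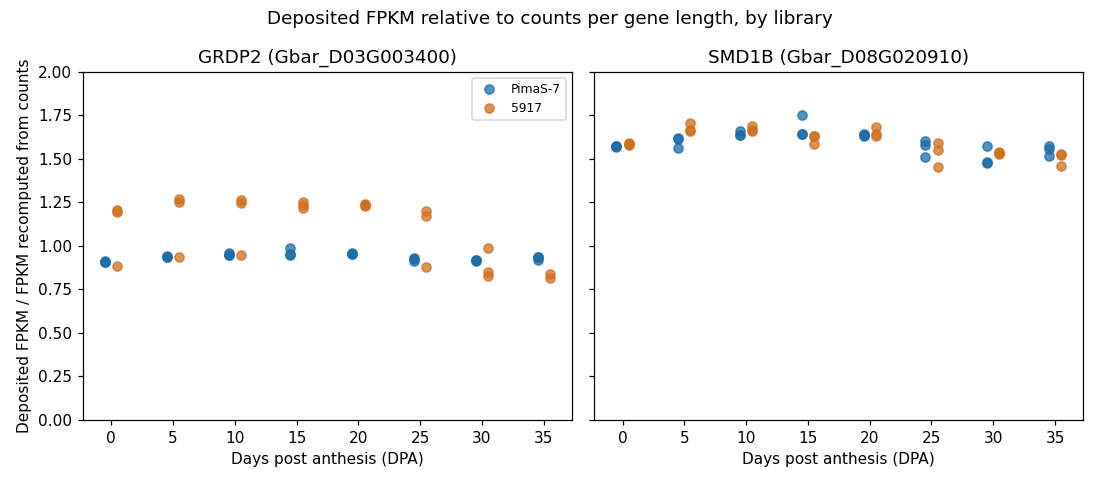
Deposited FPKM divided by FPKM recomputed from counts and gene length, for GRDP2 and SMD1B in each library with at least 30 counts, against days post anthesis. For GRDP2 the PimaS-7 libraries lie between 0.906 and 0.985, while 14 libraries of 5917 lie between 1.17 and 1.27. For SMD1B both materials lie around 1.59.

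GRDP1, another annotated glycine-rich domain protein, on D08, was not called between the materials at any of the 8 stages in edgeR. Its log2 ratios ran from -0.56 to 1.55, with a smallest adjusted p of 0.107 in that test. At an unadjusted p under 0.05 it had 1 stage, and DESeq2 called 0 of 8. Of the 3 glycine-rich genes in all, 1 of 24 combinations was called, a glycine-rich protein A3 (Gbar_D08G017110) at 5 DPA (log2 -1.02 ± 0.19 SE). The median log2 ratio of that list was -0.07.

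The genes whose profile over the 48 libraries was most like each of the 4 were sought among 45513 genes with a mean of at least 0.5 FPKM, by Pearson's r on log2(FPKM + 1). For SMD1B these were Gbar_D02G021860 (r = 0.94), Gbar_D04G007260 (r = 0.93) and Gbar_A05G031700 (r = 0.89). Gbar_D02G021860 had a mean of 819 FPKM in 5917 and 61.1 FPKM in PimaS-7. For GRDP2 they were Gbar_A03G010470 (r = 0.95), Gbar_D05G009040 (r = 0.93) and Gbar_D03G000680 (r = 0.93). For At2g45070 they were Gbar_A10G013540 (r = 0.97), Gbar_A01G022430 (r = 0.96) and a newly assembled gene, newGene_10299 (r = 0.96). All 3 had a mean of at most 0.0556 FPKM in 5917 and between 11.2 and 47.4 FPKM in PimaS-7. For F6'H1 they were newGene_12262 (r = 0.95), newGene_1790 (r = 0.94) and newGene_3705 (r = 0.93), all at a mean of 1.00 to 1.80 FPKM in 5917. The annotation held here gives no names for these genes. The libraries share material and stage, so the likeness includes the difference between the materials that the 4 genes were picked for.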

How the data were processed

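RNA from 16 groups (PimaS-7 and 5917 at 8 stages, 3 libraries each) was sequenced by the authors on an Illumina HiSeq instrument, aligned with HISAT2 to the G. barbadense 3-79 genome (HAU v2.0). StringTie served for assembly and quantification. The deposited gene counts are raw whole numbers, and the deposited FPKM values were computed by the authors. How read counts were derived, the strand setting and the treatment of reads that fit several genes are not given in the sources used here, so reads of near-identical copies, A-subgenome counterparts and antisense genes may be divided between rows. The 4 genes and all gene lists were chosen with earlier results of these data known. Gene names and positions were read from the gene table of the study for its mapped intervals on D03, D08 and D11, of which the copy used here is shortened and holds 1998 genes, so the lists lack the remaining D11 genes.

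Counts were tested in edgeR 4.0.16 (R 4.3.3) with TMM factors, filterByExpr at a minimum count of 10 and the quasi-likelihood test, on the 6 libraries of each comparison. The standard error is the log2 fold change divided by the square root of F. P-values were adjusted by Benjamini and Hochberg over all genes tested. F tests of stage with 7 degrees of freedom used the 24 libraries of a material, with adjusted p at most 0.05. A test of material by stage over all 48 was fitted but is not reported, because it draws on the contrast that chose the 4 genes. CPM levels use TMM factors over the 48 libraries. FPKM fits used limma 3.58.1 on log2(FPKM + 1) or log2(FPKM + 0.1), whose fold changes understate those of low genes. DESeq2 1.42.0 was an alternative. The scripts were tested on simulated data. The named genes are the 4 genes, the same-name genes (GRDP1 is counted among them despite its other name), the 3 genes of highest correlation with each, and per list the 2 genes called in 1 direction at most stages. Bounds take 3 counts over a group and cover counting error only. Same-numbered replicates did not deviate together (in 0 of 22 comparisons were all 3 correlations over 0.1), and the sources state no pairing. No sequence is shown.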

Additional observations from a re-analysis of the deposited data

How the results depend on the processing

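The 4 genes gave 2 called steps in PimaS-7, with 1 to 2 when single libraries were left out. The lower value came without replicate 2 of 5 DPA and without replicate 1 or 2 of 10 DPA, each of which ended the GRDP2 call. In 5917 they gave 2, with 2 to 3 when single libraries were left out, 4 in DESeq2, 5 in 1 fit of all 48 libraries and 4 with library totals in place of TMM factors, a setting chosen after seeing the data. The 2 stages called for the same-name genes became 0 in the fit of all 48 libraries. The 22 gene and stage combinations called among neighbours became 12 in limma on log2(FPKM + 1). The genes without a count, 1674 in PimaS-7 and 2356 in 5917, became 3460 and 4246 with up to 3 counts over the material allowed. With a replicate block the called steps stayed at 2 and 2, the list combinations went from 21 to 19 and the neighbour combinations from 22 to 16. Replicate numbers were shared labels only, since no comparison had every library closest to its own number (0 of 22). The other counts moved by no more than 1.5 times, 2 settings also chosen after seeing the data included: both SMD1B genes summed, and 5917 without replicate 3 of 25 DPA and replicate 1 of 30 DPA. Of the 12 most similar genes, 8 were found again with normalized CPM and 8 without 0 DPA. No direction of a called change was reversed. Low counts limit At2g45070 in 5917 and F6'H1 after 10 DPA, where a few reads or 1 library can move the ratio or bound.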
